A study of Mus musculus with 22 samples.

Results

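Pitx1, Trp63 (which encodes p63), Tfap2a, Sox9 and Sox15, which encode transcription factors of the squamous lineage, were followed across bulk RNA-seq libraries of mouse tumour cell lines. They were taken from the deposited expression table by gene name, which gave 5 genes of 49671 in the table. The series held 22 libraries in 11 groups of 2. All lines came from a primary tumour with Lgr5CreER, p53fl/fl and Rosa26-YFP+/+ and 1 further conditional allele. The Control line and 4 lines made with CRISPR/Cas9, named Pitx1KO, Klf5KO, Nfatc1KO and Creb3l1KO after the targeted gene, were each sorted at day 8 into EPCAM+ and EPCAM- fractions. The Control line was also sampled at day 0, as EPCAM+ cells only. Cells were living mCherry+ YFP+ singlets isolated by FACS. EPCAM is an epithelial surface protein that is lost when carcinoma cells pass through epithelial-to-mesenchymal transition. The labels did not give the event that day 0 marks. They tagged the libraries of each group as batch sample 1 and sample 2. Whether these were different cultures, or different clones of a knockout, was not said, and the p-values therefore measure only the spread between these samples.

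The genes belong to different families with roles in stratified epithelia. p63 is the p53-family factor that maintains basal keratinocytes and directs their keratin and adhesion genes. AP-2alpha, the product of Tfap2a, acts in epidermal differentiation, SOX9 marks hair follicle stem cells and is expressed in many skin carcinomas, and SOX15 is expressed in keratinocytes. PITX1 is a paired-type homeodomain factor that specifies hindlimb identity during development and is expressed in squamous cell carcinomas.

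Each library's deposited values summed to between 20007331 and 20014236, so a value is a share of a common total, called a unit below. The libraries held 6054919 to 9882692 reads in genes, with a median of 7804820. Epcam values ran from 3702 to 7320 units in the EPCAM+ libraries and from 90 to 735 in the EPCAM- libraries, so the sorted fractions did not overlap. The 6 leukocyte markers summed to 26 to 103 units, the 4 melanocyte markers to 6 to 45 and the 3 muscle markers to 0 to 32. Of these, Cd3e, Tyr, Dct, Myod1 and Myog, which mark T cells, melanocytes and muscle, were at 0 in every library. Others were present, with Cd68 at 26 to 97 units, Pmel at 6 to 45 and Des at 0 to 32. The 4 endothelial markers summed to 65 to 431 units, highest in a Pitx1KO EPCAM- library, with Pecam1 at 53 to 157 throughout. The summed level of the 7 fibroblast markers was 3057 and 5007 units in the Pitx1KO EPCAM- libraries and 668 to 3820 in the EPCAM- libraries of the other lines. In EPCAM+ cells at day 8 it was 716 and 888 in Pitx1KO, above all 8 libraries of the other lines (160 to 708). The 7 markers did not rise together. Over all libraries Col1a1 reached 3666 and Col3a1 1098 units, while Col1a2, Dcn and Lum reached only 71, 61 and 6. In both Pitx1KO EPCAM- libraries 2 of the 7 were at 0. The part of the differences in these marker sums in the results below was not tested. In bulk samples, fewer cells of a type and less RNA per cell cannot be told apart.

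Pitx1 was the most abundant of the 5 genes and Trp63 the least. Per kilobase of annotated exon, the median over the libraries was 1773 units for Pitx1, 843 for Sox9, 242 for Tfap2a, 26.1 for Sox15 and 0.358 for Trp63. Only Pitx1 stood apart in the Pitx1KO line, as the plot of each gene in each library shows.

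**Figure D1:**
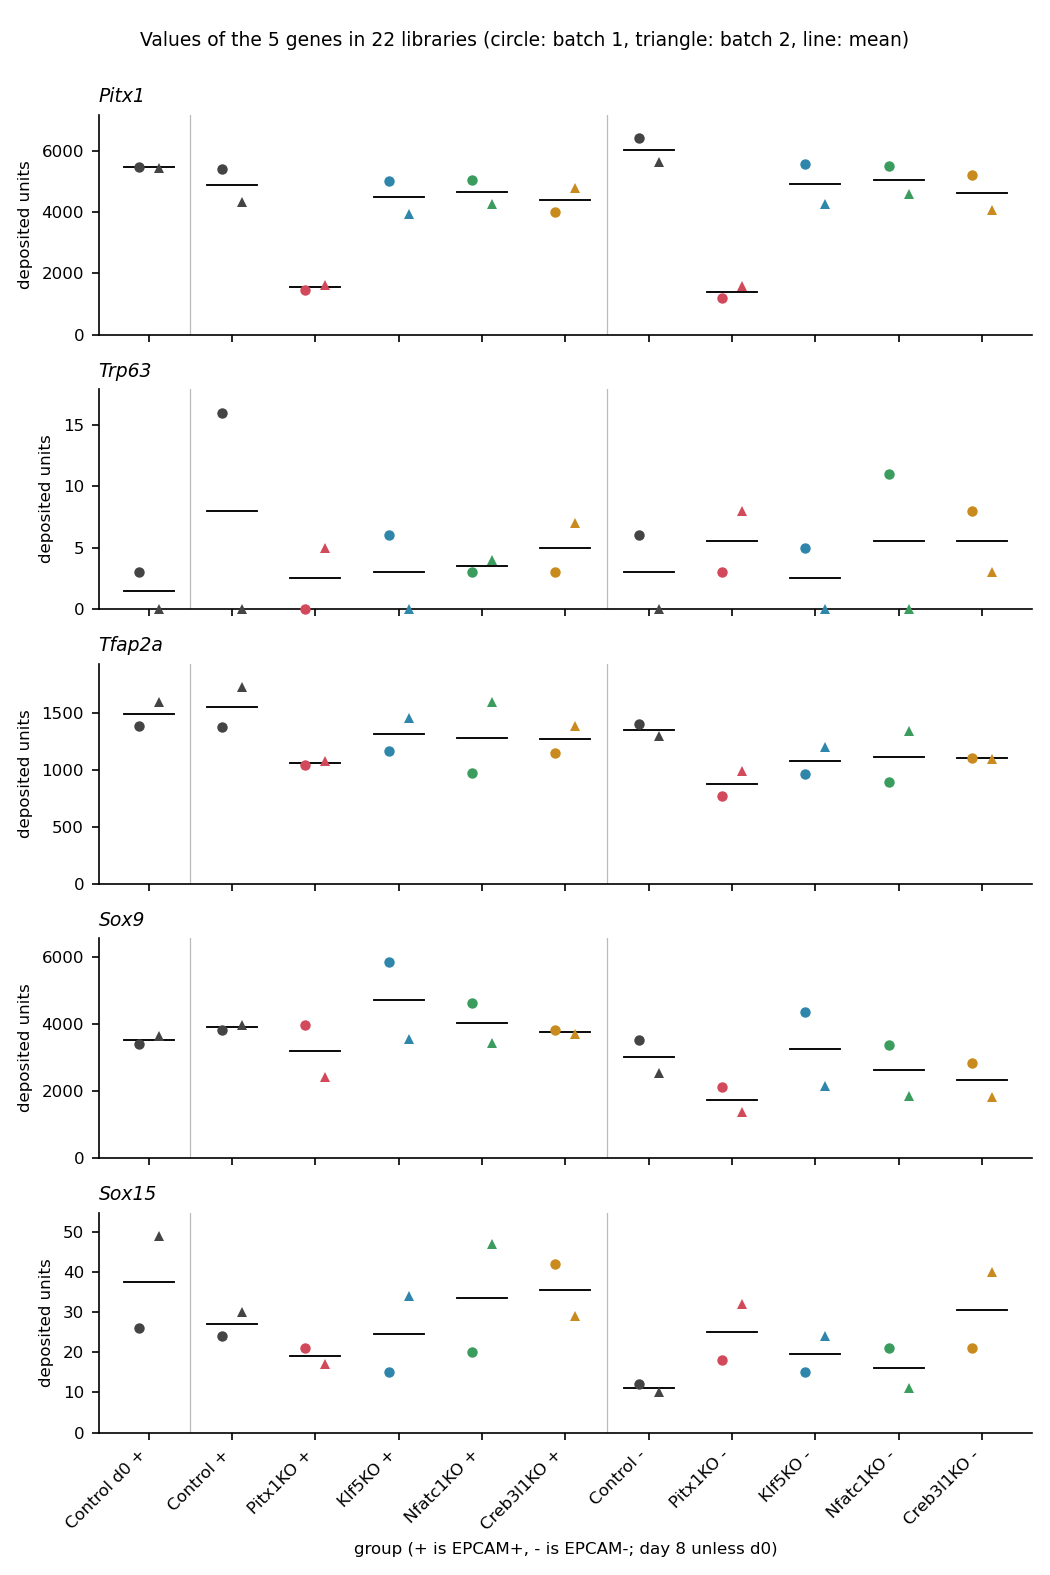
Deposited units (linear axis from 0) of Pitx1, Trp63, Tfap2a, Sox9 and Sox15 in the 22 libraries, by group, with circles for batch 1, triangles for batch 2 and a line at the group mean. The 4 Pitx1KO libraries lie at 1205 to 1627 units of Pitx1 while all others lie at 3956 or more, and Trp63 is at or near 0 in all groups.

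Pitx1 (ENSMUSG00000021506) lies on the minus strand of chromosome 13 at chr13:55825051-55836192 (GRCm38) and was the gene targeted in the Pitx1KO line. Its transcript was lowered but not lost there. In the EPCAM+ fraction at day 8 (batch 1, then batch 2), Pitx1KO held 1473 and 1627 units, against 5432 and 4358 in Control, 5040 and 3956 in Klf5KO, 5049 and 4271 in Nfatc1KO, and 4004 and 4815 in Creb3l1KO. All 8 libraries of the other lines were above both Pitx1KO libraries. In the EPCAM- fraction, Pitx1KO held 1205 and 1585 units, against 6438 and 5668 in Control, 5581 and 4261 in Klf5KO, 5531 and 4601 in Nfatc1KO, and 5224 and 4068 in Creb3l1KO. Here too the groups did not overlap. Control EPCAM+ cells at day 0 held 5494 and 5456 units. Both were just above the day 8 EPCAM+ libraries of the lines other than Pitx1KO (3956 to 5432). They lay inside the range of the EPCAM- libraries of those lines (4068 to 6438).

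Against the equally weighted mean of the 4 other lines, Pitx1 fell by 1.57 on the log2 scale in EPCAM+ cells (SE 0.16, 95% interval -1.90 to -1.23, limma with Benjamini-Hochberg adjustment, adjusted p = 0.0001). The mean was 2.98-fold lower (1550 against 4616 units). In EPCAM- cells it fell by 1.89 (SE 0.16, interval -2.22 to -1.55, adjusted p = 1.05e-05), a mean 3.71-fold lower (1395 against 5172 units). By p-value Pitx1 ranked 4th of 19569 tested genes in EPCAM+ cells and 2nd in EPCAM- cells. Within batch 1 the difference was -1.72 in EPCAM+ and -2.23 in EPCAM- cells on the log2 scale, and within batch 2 it was -1.41 and -1.54. The call held in 45 of 45 alternative settings of these comparisons.

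Set against each line in turn, Pitx1 was lower in Pitx1KO in 8 of 8 comparisons, by -2.13 to -1.50 on the log2 scale (limma adjusted p from 5.52e-05 to 0.00128). Of all tested genes, 0.409%, 0.654%, 0.429% and 0.347% were called in EPCAM+ cells against Control, Klf5KO, Nfatc1KO and Creb3l1KO, and 0.915%, 0.383%, 0.286% and 0.828% in EPCAM- cells. These comparisons share the Pitx1KO libraries. Against Control alone the fall was 1.65 in EPCAM+ (adjusted p = 0.000731) and 2.13 in EPCAM- cells (adjusted p = 5.52e-05). Fitted on the groups compared alone, the same differences had adjusted p = 0.0930 and 0.0534. The remaining level in Pitx1KO corresponded to at least 493 reads per library. The reads were counted per gene and the labels do not give the edited position, so the values do not show which part of the transcript remained.

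The other knockouts were not called for Pitx1. In EPCAM- cells all 6 of their libraries lay below both Control libraries, and in EPCAM+ cells their range overlapped that of Control. Against Control, the log2 difference was -0.39 to -0.07 over the 3 other knockouts and both fractions, and 0 of 6 comparisons passed the test (smallest limma adjusted p = 0.865), with 0 at an unadjusted p under 0.05 and 0 by limma-voom. The shares of all tested genes called there were 0.0511%, 0% and 0.194% for Klf5KO, Nfatc1KO and Creb3l1KO in EPCAM+ cells and 0.153%, 0% and 0.261% in EPCAM- cells. Ordered by level, the group means ran from 6053 ± 544 units (SD, n = 2) in Control EPCAM- and 5475 ± 26.9 in Control EPCAM+ at day 0 down to 4410 ± 573 in Creb3l1KO EPCAM+, followed by 1550 ± 109 in Pitx1KO EPCAM+ and 1395 ± 269 in Pitx1KO EPCAM-. Only 2 of the 10 steps between neighbours in this order were free of overlap between libraries, the one from Control EPCAM- to Control at day 0 and the one from Creb3l1KO EPCAM+ to Pitx1KO EPCAM+.

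**Figure D2:**
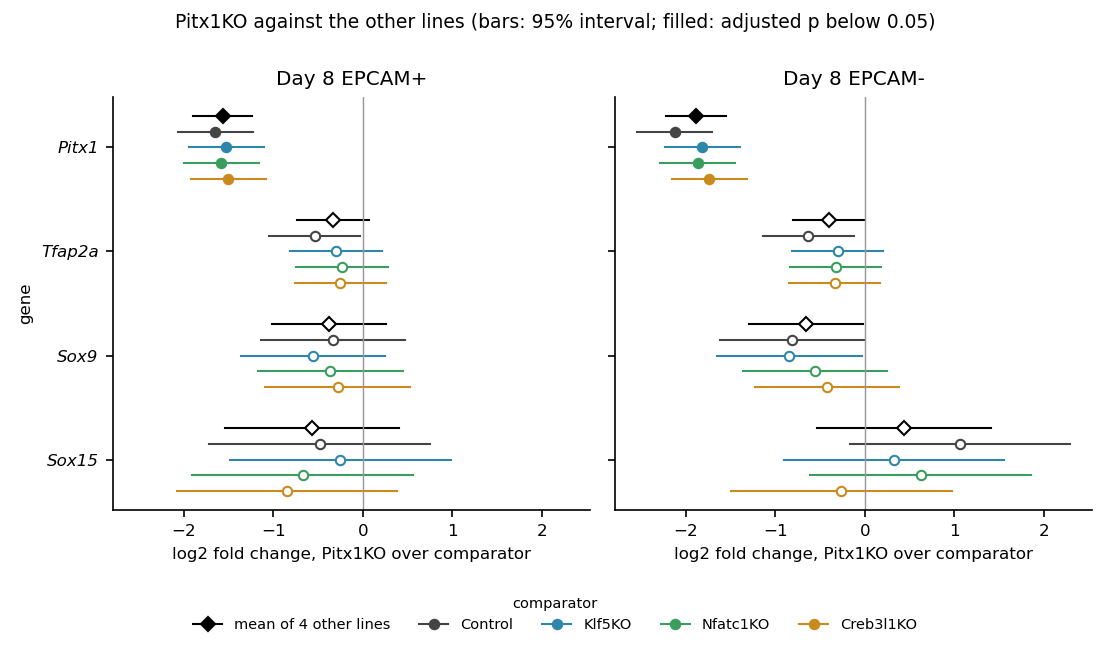
Log2 fold change (Pitx1KO over the comparator) of Pitx1, Tfap2a, Sox9 and Sox15 at day 8, by fraction, with 95% intervals; diamonds are the mean of the 4 other lines, circles single lines, and filled symbols have an adjusted p below 0.05. All 10 Pitx1 symbols are filled and lie at -1.50 or lower, and no symbol of the other 3 genes is filled.

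Genes around Pitx1 on chromosome 13 were read next. The table held 33 annotated genes that start within 500 kb of the Pitx1 start, and 24 passed the filter, Pitx1 included. Against the other lines, 4 of the 24 were called in EPCAM+ and 4 in EPCAM- cells, all of them lower, where 1.09% and 1.36% of all tested genes were called. Pitx1 itself was among the 4 in each fraction. Gm28760, which lies inside Pitx1, was also among the 4 in EPCAM- cells. With the batch number as a block the counts were 7 and 6, Pitx1 included, and the shares of all tested genes 3.05% and 3.19%. The median log2 difference of the 24 genes was -0.42 in EPCAM+ and -0.45 in EPCAM- cells, beside 0.04 over all tested genes in each fraction.

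H2afy, which encodes the histone variant macroH2A and starts 300169 bp from Pitx1, was the nearest called protein-coding neighbour. In EPCAM+ cells it was at 1666 and 1763 units in Pitx1KO and at 2600 to 3326 in the other lines, with no overlap. It fell by 0.80 on the log2 scale in EPCAM+ (SE 0.12, limma adjusted p = 0.00313) and by 0.59 in EPCAM- cells (adjusted p = 0.0204). Without the Pitx1KO batch 1 library the EPCAM+ value had adjusted p = 0.0897, and without either Pitx1KO library the EPCAM- value was lost (0.150 and 0.277). Lman2, a cargo receptor gene of the secretory pathway, fell by 0.58 and 0.57 (adjusted p = 0.0237 and 0.021), and leaving out either Pitx1KO library, or the Klf5KO batch 1 library in EPCAM+ cells, took it above the threshold (0.0523 to 0.317). Cxcl14, which encodes a chemokine made by epithelia, was listed at 0 in both Pitx1KO EPCAM+ libraries and at 3 to 52 units in the others (adjusted p = 0.000538). Those others were 5 and 3 units in Creb3l1KO, 8 and 14 in Nfatc1KO, 19 and 36 in Control, and 48 and 52 in Klf5KO. As 3 reads were worth 6.07 to 9.91 units, Creb3l1KO was near the limit of detection too. In EPCAM- cells the Cxcl14 means were 5.5 and 13.2 units (adjusted p = 0.525). Gm28760, a noncoding gene inside Pitx1 on the same strand, was called in EPCAM- cells (37.0 against 153.5 units, adjusted p = 0.0055, and 0.177 without the Pitx1KO batch 1 library). Reads in that overlap could belong to either gene, so this value is uncertain.

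**Figure D3:**
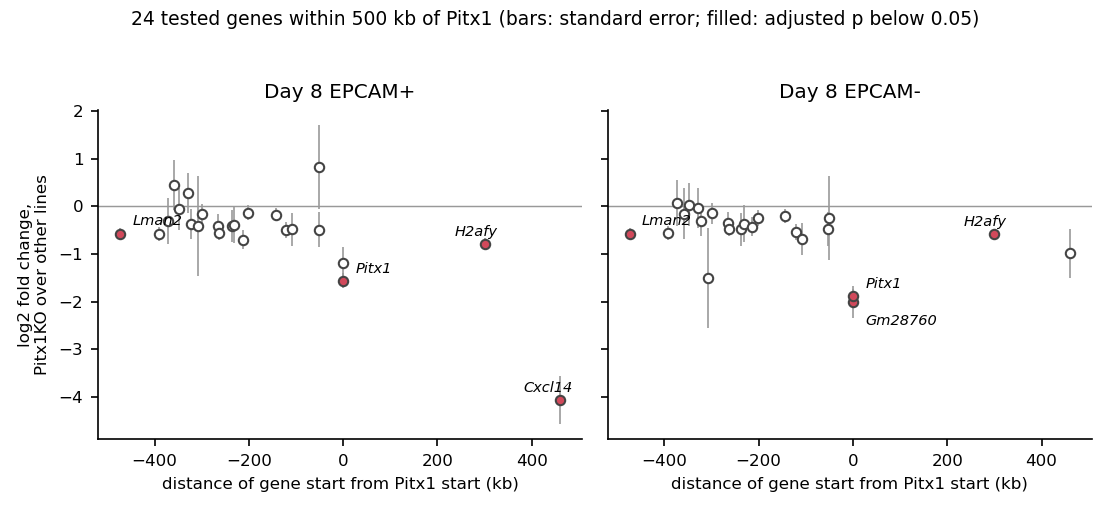
Log2 fold change (Pitx1KO over the 4 other lines) of the 24 tested genes against the distance of their start from the Pitx1 start in kb, by fraction, with standard errors; filled points have an adjusted p below 0.05. Most points lie below 0, and the called neighbours are Lman2, H2afy and, by fraction, Cxcl14 or Gm28760.

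Trp63 (ENSMUSG00000022510, chr16:25683763-25892102, plus strand) was at the limit of detection in every group. The 22 libraries together held 33 Trp63 reads, 7 libraries held none, and 20 held 3 reads or fewer. Control EPCAM+ cells at day 8 held 16 and 0 units, the highest single value, and Control at day 0 held 3 and 0. Pitx1KO held 0 and 5 units in EPCAM+ and 3 and 8 in EPCAM- cells. Over the other lines, EPCAM+ values ran from 0 to 16 and EPCAM- values from 0 to 11, so the groups overlapped fully. In reads, Pitx1KO held 2 in EPCAM+ and 4 in EPCAM- cells, and the 8 other libraries of each fraction held 14 and 12. A floor of 3 reads in a library was worth 6.07 to 9.91 units, and no fold change is given for a gene at this level. Any difference in Trp63 between lines or fractions was not detectable at this depth. Trp73, which encodes the p53-family relative p73, was at 0 to 3 units throughout.

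Tfap2a (ENSMUSG00000021359, chr13:40715302-40738376, minus strand) was expressed in all libraries, at 770 to 1730 units. In EPCAM+ cells Pitx1KO held 1042 and 1081 units, against 1376 and 1730 in Control, 1170 and 1457 in Klf5KO, 972 and 1599 in Nfatc1KO, and 1148 and 1391 in Creb3l1KO. Of those 8 libraries 7 were above both Pitx1KO libraries, and the Nfatc1KO library of batch 1 was below both. In EPCAM- cells Pitx1KO held 770 and 990 units, against 1405 and 1303 in Control, 967 and 1199 in Klf5KO, 893 and 1341 in Nfatc1KO, and 1109 and 1095 in Creb3l1KO. There 6 of 8 libraries were above both, and the groups overlapped. Control at day 0 held 1391 and 1599 units.

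The Tfap2a differences did not pass the test. Against the other lines the log2 difference was -0.33 in EPCAM+ (SE 0.19, 95% interval -0.73 to 0.07, limma adjusted p = 0.548) and -0.40 in EPCAM- cells (SE 0.19, interval -0.80 to 0.01, adjusted p = 0.469). Against Control it was -0.54 (interval -1.05 to -0.03, adjusted p = 0.445) and -0.63 (interval -1.14 to -0.12, adjusted p = 0.323). The sign was negative against each of the 4 lines in both fractions, and limma and limma-voom called 0 of those 8 comparisons, which share the Pitx1KO libraries, with 2 at an unadjusted p under 0.05. The 3 other knockouts also had negative values against Control in 6 of 6 comparisons, from -0.33 to -0.24, with 0 called by limma or limma-voom and 0 at an unadjusted p under 0.05 (smallest adjusted p = 0.755). The intervals leave room for a fall of up to 1.14 on the log2 scale against Control.

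Sox9 (ENSMUSG00000000567, chr11:112782224-112787760, plus strand) differed between the sorted fractions. In EPCAM+ cells at day 8 it held 3837 and 3969 units in Control, 3989 and 2415 in Pitx1KO, 5871 and 3566 in Klf5KO, 4618 and 3449 in Nfatc1KO, and 3834 and 3716 in Creb3l1KO. In EPCAM- cells the values were 3520 and 2541, 2114 and 1372, 4362 and 2140, 3385 and 1866, and 2842 and 1830 units in the same order of lines. Within each line and batch, the EPCAM- library was lower than its EPCAM+ partner in 10 of 10 pairs, by 1.09- to 2.03-fold. Control at day 0 held 3395 and 3644 units.

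Averaged over the 5 lines, Sox9 fell by 0.65 on the log2 scale from EPCAM+ to EPCAM- cells (SE 0.17, 95% interval -1.01 to -0.28, limma adjusted p = 0.033). The means were 3926 and 2597 units. It was 1 of the 4 genes above the detection floor called in this comparison, in which 6.22% of all tested genes were called. The call was near the threshold in this fit. With no filter on low values the adjusted p was 0.0552, and leaving out single libraries gave 0.0111 to 0.0730, with 12 of 20 above 0.05. With the batch number as a block it was 0.000493, and with line and batch together as a block 1.16e-06, fits in which 10.1% and 22.8% of all tested genes were called. Inside a single line 0 of 5 differences were called by limma or limma-voom (-0.87 to -0.38), 1 was at an unadjusted p under 0.05, and with the paired fractions as a block 3 were, in Pitx1KO (adjusted p = 0.00165), Nfatc1KO (0.0122) and Creb3l1KO (0.0092). In Control, Pitx1KO, Klf5KO, Nfatc1KO and Creb3l1KO, 0.644%, 0.317%, 0.286%, 0.429% and 0.291% of all tested genes were called between fractions, and 6.92%, 4.8%, 2.25%, 6.11% and 3.14% with the paired fractions as a block.

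**Figure D4:**
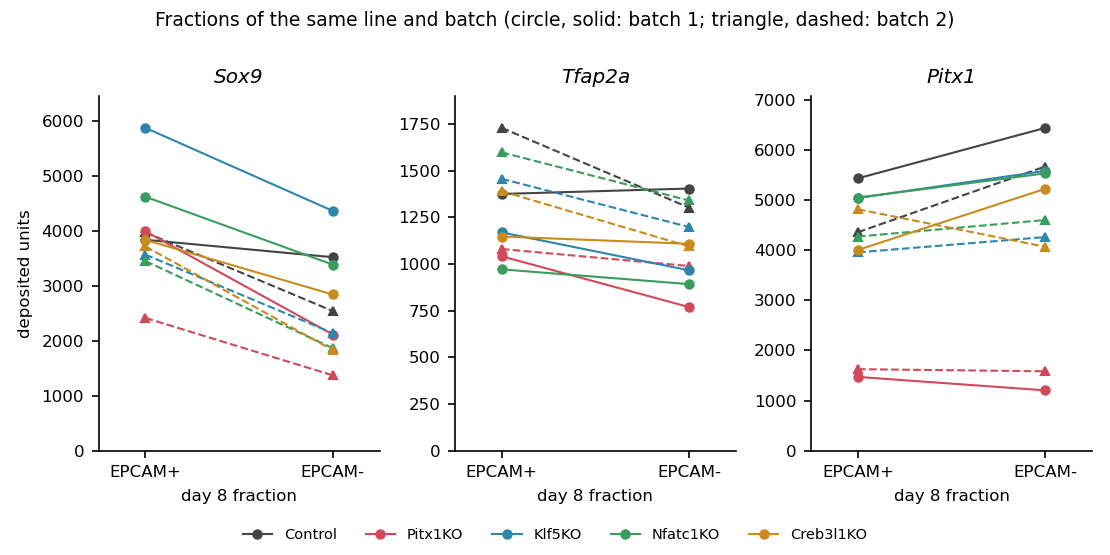
Deposited units (linear axis from 0) of Sox9, Tfap2a and Pitx1 in the EPCAM+ and EPCAM- fractions at day 8, with a line joining the fractions of 1 line and batch (circles and solid lines for batch 1, triangles and dashed lines for batch 2). Sox9 is lower in the EPCAM- fraction in 10 of 10 pairs and Tfap2a in 9 of 10, and Pitx1 stays low in Pitx1KO in both fractions.

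Between lines, Sox9 was not called. Against the other lines the log2 difference in Pitx1KO was -0.38 in EPCAM+ (SE 0.30, interval -1.02 to 0.25, limma adjusted p = 0.7) and -0.66 in EPCAM- cells (SE 0.30, interval -1.30 to -0.02, adjusted p = 0.433, unadjusted p = 0.0435). With the batch block the EPCAM- value had adjusted p = 0.0613. In EPCAM- cells 6 of 8 libraries of the other lines were above both Pitx1KO libraries. The batch 1 library was above the batch 2 library in 5 of 5 EPCAM- groups, and within batches the Pitx1KO difference in EPCAM- cells was -0.72 and -0.60. The interaction, which asks whether the fraction difference in Pitx1KO departs from that in the other lines, was -0.28 (SE 0.42, adjusted p = 1).

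Tfap2a, Pitx1 and Sox15 were not called between the fractions. For Sox15 the mean log2 difference from EPCAM+ to EPCAM- was -0.47 (limma adjusted p = 0.347). For Tfap2a the mean log2 difference from EPCAM+ to EPCAM- was -0.23 (SE 0.11, interval -0.46 to 0.00, limma adjusted p = 0.262), and with line and batch as a block the adjusted p was 0.00705. For Pitx1 it was 0.09 (SE 0.09, adjusted p = 0.631), with the EPCAM- mean above the EPCAM+ mean in Control, Klf5KO, Nfatc1KO and Creb3l1KO (0.31, 0.13, 0.12 and 0.07) and below it in Pitx1KO (-0.16). None of those 5 within-line values was called by limma or limma-voom, and 0 were at an unadjusted p under 0.05. The Pitx1 interaction of Pitx1KO against the mean of the other lines was -0.32 (SE 0.22, interval -0.79 to 0.15, adjusted p = 1). By limma and limma-voom 0 of 19569 genes were called for the interaction, with 310 at an unadjusted p under 0.05, and of the 4 genes above the detection floor 0 were below an unadjusted p of 0.05 and 0 were called by limma-voom.

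Sox15 (ENSMUSG00000041287, chr11:69655314-69656727, plus strand) was low in all groups, at 4 to 17 reads per library. Pitx1KO held 21 and 17 units in EPCAM+ cells, where the other lines ran from 15 to 47, and 18 and 32 in EPCAM- cells, where they ran from 10 to 40. The groups overlapped in both fractions. The log2 difference was -0.57 in EPCAM+ (SE 0.46, interval -1.54 to 0.41, limma adjusted p = 0.714) and 0.44 in EPCAM- cells (interval -0.54 to 1.41, adjusted p = 0.848). Control held 26 and 49 units at day 0, 24 and 30 in EPCAM+ and 12 and 10 in EPCAM- cells at day 8. The day 8 EPCAM- value against day 0 was -1.62 (interval -2.85 to -0.39, adjusted p = 0.187), in a comparison that called 2.01% of all tested genes. Counts this small left intervals more than 1 log2 unit wide, and Sox15 was called in 0 of 25 comparisons by limma or limma-voom, with 2 at an unadjusted p under 0.05.

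Of the 4 genes above the floor, 1 was called in Pitx1KO against the other lines in each fraction (the targeted gene itself), where 1.09% of tested genes were called in EPCAM+ and 1.36% in EPCAM- cells. Control EPCAM+ cells at day 8 against day 0 gave 0 calls among them and 0 over all tested genes by limma and limma-voom, with 0 and 831 at an unadjusted p under 0.05.

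Genes that the 5 factors are linked to were then read as groups. The lists were chosen with earlier results of these data known, so their counts are descriptions and not independent evidence. The p63 target and basal keratinocyte list came first. Of 39 tested members, 3 fell and 0 rose in Pitx1KO against the other lines in EPCAM+ cells, and 5 fell and 0 rose in EPCAM- cells. By direction, 0.608% of all tested genes fell in EPCAM+ and 0.843% in EPCAM- cells. The median log2 difference of the list was -0.38 in EPCAM+ and -0.43 in EPCAM- cells, beside 0.04 over all genes, and 30 and 28 members had negative values.

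Krt17, a keratin of hair follicles and stressed epidermis, was at 72 and 38 units in Pitx1KO EPCAM+ and at 8 and 37 in Pitx1KO EPCAM- cells. Control, Klf5KO and Nfatc1KO held 2896 to 7976 units in EPCAM+ and 2175 to 4009 in EPCAM- cells. Creb3l1KO was also low, at 210 and 85 units in EPCAM+ and 113 and 52 in EPCAM- cells. Against the other lines Krt17 fell by 5.14 on the log2 scale in EPCAM+ (SE 0.50, limma adjusted p = 0.000201) and by 6.10 in EPCAM- cells (adjusted p = 2.66e-05). It fell in Creb3l1KO against Control as well (log2 -4.86, adjusted p = 0.0026, and -5.22, adjusted p = 0.000966). Pitx1KO against Creb3l1KO was not called for Krt17 (-1.34, adjusted p = 0.578, and -2.07, adjusted p = 0.187).

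Krt14, the basal keratinocyte keratin, was at 331 and 106 units in Pitx1KO EPCAM+ and at 52 and 117 in Pitx1KO EPCAM- cells. The other lines held 863 to 12774 units in EPCAM+ and 665 to 6797 in EPCAM- cells, with no overlap, and Creb3l1KO lay among them at 3795 and 3538 in EPCAM+ cells. The log2 fold change of Krt14 was -3.97 in EPCAM+ (SE 0.77, limma adjusted p = 0.0225) and -4.85 in EPCAM- cells (adjusted p = 0.00594). By limma-voom the adjusted p was 0.134 and 0.151. Without the Pitx1KO batch 1 library of the same fraction it was 0.0822 in EPCAM+ and 0.145 in EPCAM- cells, and without the batch 2 library 0.194 and 0.0536. Against Control alone the EPCAM+ value of -4.75 missed the threshold (adjusted p = 0.0512), and it passed with the batch block (0.00922).

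Cdh3, which encodes P-cadherin of basal cells, was at 949 and 708 units in Pitx1KO EPCAM+ cells and at 1944 to 3435 in the other lines of that fraction, with no overlap. It fell by 1.59 in EPCAM+ (SE 0.24, limma adjusted p = 0.00267) and by 1.21 in EPCAM- cells (adjusted p = 0.0161). Without the Pitx1KO batch 2 library the EPCAM+ value had adjusted p = 0.0682, and without either Pitx1KO library the EPCAM- value was lost (0.168 and 0.210). Perp, a desmosomal p63 target, fell in EPCAM- cells (199.5 against 820 units, log2 -1.95, SE 0.33, adjusted p = 0.00773). Klf5KO was also low there, at 317 and 288 units beside 282 and 117 in Pitx1KO, and the remaining lines held 684 to 1836. In EPCAM+ cells Perp was at 947 and 879 units in Klf5KO and at 1428 and 938 in Pitx1KO. Without the Pitx1KO batch 2 library the adjusted p of Perp in EPCAM- cells was 0.211. Ntrk2, a neurotrophin receptor gene chosen for mention after its values were seen, was listed at 0 in both Pitx1KO EPCAM- libraries and averaged 13.1 units in the other lines (adjusted p = 0.0112).

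Itga6, the basal integrin alpha-6 gene, differed from Control but not from every line. In EPCAM- cells it was at 1139 and 494 units in Pitx1KO, at 562 and 573 in Klf5KO, and at 11125 and 3738 in Control. Against Control it fell by 3.10 (SE 0.54, limma adjusted p = 0.0142), and without the Control batch 1 library the adjusted p was 0.188, without the Pitx1KO batch 2 library 0.164. Klf5KO was lower than Control too, by 3.50 (adjusted p = 0.0175). Of the 8 comparisons of Pitx1KO with a single line in a single fraction, Krt17 was called in 6, Cdh3 in 4, Perp in 3, Krt14 in 2 and Itga6 in 1.

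**Figure D5:**
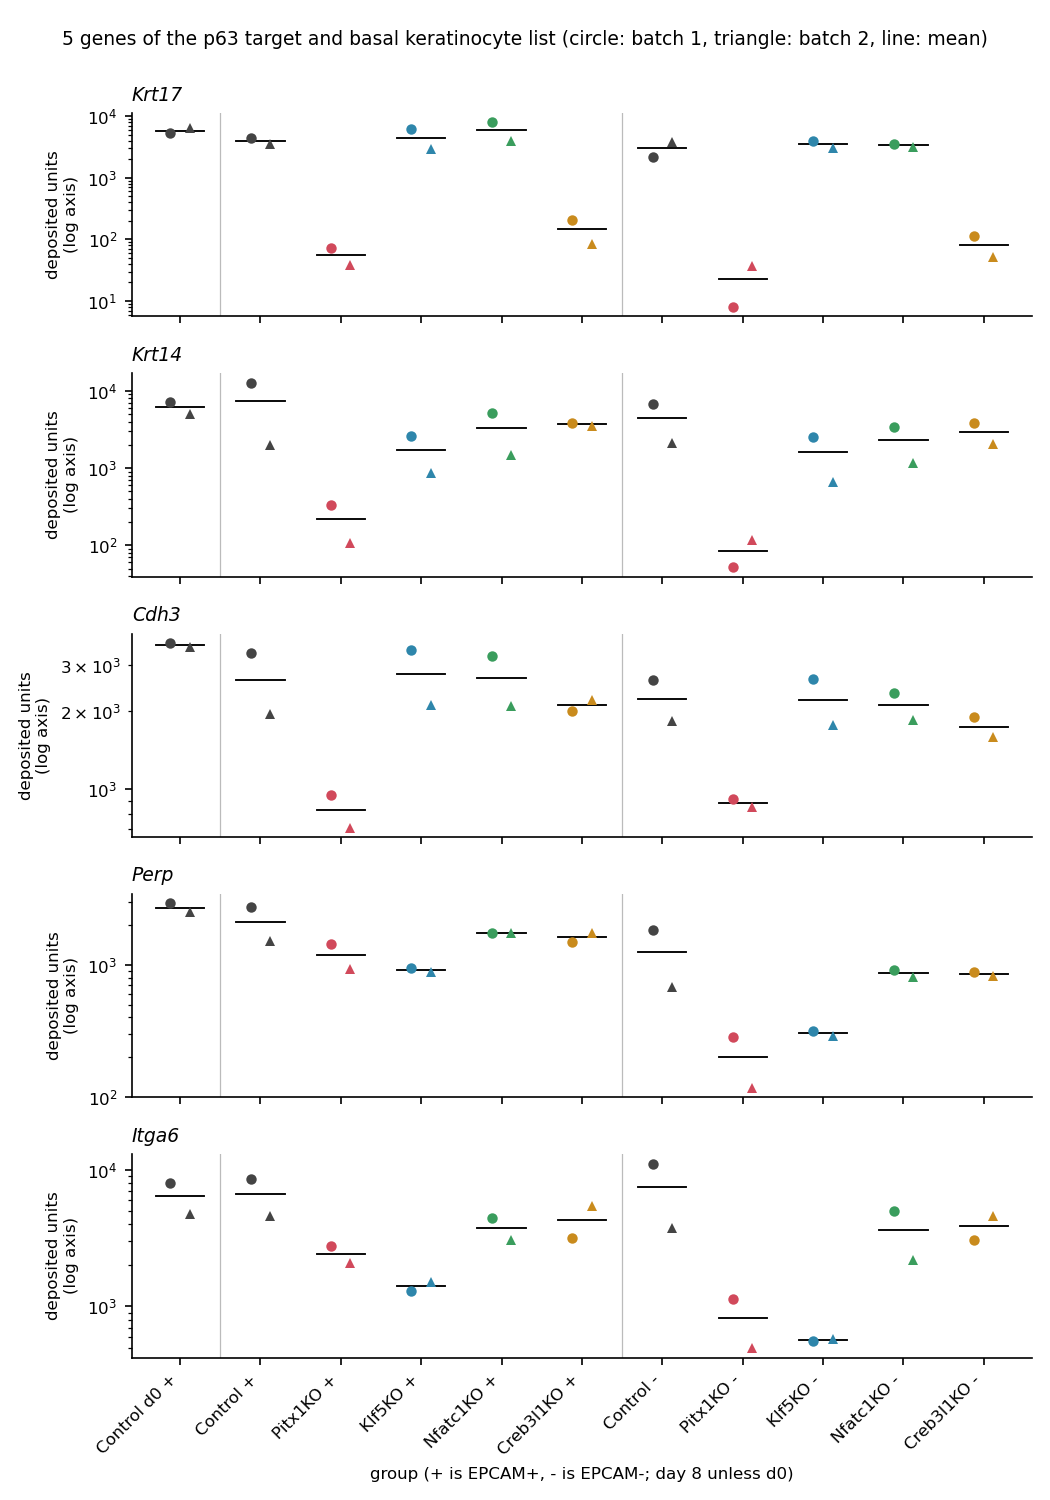
Deposited units (log axis) of Krt17, Krt14, Cdh3, Perp and Itga6 in the 22 libraries by group, with circles for batch 1, triangles for batch 2 and a line at the group mean. Krt17 is low in Pitx1KO and Creb3l1KO, Krt14 and Cdh3 are low in Pitx1KO, and Itga6 is low in Klf5KO as well as in Pitx1KO EPCAM- cells.

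The other squamous lineage transcription factors showed no such calls. Of 26 tested, limma called 0 in Pitx1KO against the other lines in either fraction, with 6 and 3 below an unadjusted p of 0.05. Over all tested genes, 11.6% and 10.9% were below it. Limma-voom called 0 in EPCAM+ and 1 in EPCAM- cells, beside 1.04% and 1.13% of all tested genes. With the batch block, Sox21 rose and Bnc1 fell in EPCAM- cells, in a fit that called 3.19% of all tested genes there. The list's median log2 difference was -0.21 in both fractions, beside 0.04 over all genes. Against Control limma and limma-voom called 0, with 5 and 3 at an unadjusted p under 0.05, and the medians were -0.46 in EPCAM+ and -0.41 in EPCAM- cells.

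Sox21, a SOX-family repressor gene, held 64 and 34 units in Pitx1KO EPCAM- cells and 5 to 29 in the other lines, so Pitx1KO was above all 8. Its log2 difference was 1.44 with limma adjusted p = 0.0536, 0.0373 with the batch block and 0.0447 by limma-voom. None of the 5 tested SOX-family genes beyond Sox9 and Sox15 was called against the other lines by limma without the block, with 2 in EPCAM+ and 1 in EPCAM- cells at an unadjusted p under 0.05. Sox2, the squamous lineage factor often expressed with p63, was at 0 to 3 units in all libraries, and Sox4 was at 3582 to 10022. Tfap2c, the closest AP-2 relative in skin, was at 0 throughout.

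Squamous differentiation genes, such as involucrin and the small proline-rich proteins, were called in 0 of 20 tested cases in Pitx1KO against the other lines in either fraction. These named genes were low, with Ivl (involucrin) at 0 to 34 units, Sprr1a at 0 to 32 and Sprr1b at 0 to 20. A difference in genes so near the floor could be missed. Others of the list were higher, such as Lypd3 (45 to 669) and Cstb (1298 to 2894). At an unadjusted p of 0.05, 2 passed in EPCAM+ and 1 in EPCAM- cells, and limma-voom called 0 in both. The median log2 difference was -0.10 in EPCAM+ and -0.30 in EPCAM- cells. The list linked to PITX factors and hindlimb development held 8 tested genes, of which 3 fell in both fractions against the other lines by limma and 1, Gata4, by limma-voom. Over all tested genes 0.608% fell in EPCAM+ and 0.843% in EPCAM- cells by limma, and limma-voom called 1.04% and 1.13% in either direction. Gata4 and Emb were listed at 0 in all 4 Pitx1KO libraries and Tbx3 was at 0 to 3 units. The same 3 genes were at 0 to 6 units in the 4 Creb3l1KO libraries, and each also fell in Creb3l1KO against Control in both fractions. Without 1 or the other Pitx1KO library Emb missed the threshold in both fractions (adjusted p 0.0529 to 0.0889) and Tbx3 in EPCAM+ cells (0.184 and 0.0968), and without the batch 1 library Tbx3 missed it in EPCAM- cells too (0.115). Tbx4, a hindlimb gene downstream of Pitx1 in development, was at 0 to 6 units.

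Among SOX9-linked genes, limma and limma-voom called 0 of 11 tested in Pitx1KO against the other lines, with 5 in EPCAM+ and 3 in EPCAM- cells at an unadjusted p under 0.05, where 11.6% and 10.9% of all tested genes were. With the batch block 2 were called in EPCAM+ and 1 in EPCAM- cells, beside 3.05% and 3.19% of all tested genes. Wnt5a, a noncanonical Wnt ligand gene, fell in both fractions in that fit (adjusted p = 0.0117 and 0.0234), and Nfatc1 rose in EPCAM+ cells (adjusted p = 0.0117), in a comparison whose other lines include Nfatc1KO. Wnt5a in EPCAM+ cells was at 3 and 0 units in Pitx1KO, 15 and 7 in Creb3l1KO, 48 and 4 in Nfatc1KO, and 16 and 36 in Control. Klf5KO was highest in both fractions, at 122 and 160 units in EPCAM+ and 624 and 412 in EPCAM- cells. Against Control, Gli2, a Hedgehog pathway factor, fell in EPCAM- cells (4.0 against 267.5 units, limma adjusted p = 0.0176), and the call was lost in 4 of 4 fits that left out 1 library (0.0796 to 0.156). Control stood apart for Gli2 in that fraction, at 234 and 301 units, with Klf5KO at 15 and 33, Nfatc1KO at 31 and 31, and Creb3l1KO at 44 and 5. Of the 3 AP-2-linked and 4 p53-linked genes tested, limma and limma-voom called 0 against the other lines. In EPCAM+ cells 1 AP-2-linked gene was at an unadjusted p under 0.05. The 4 p53-linked genes were Trp53, Cdkn1a, Mdm2 and Ccng1.

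The EPCAM- fraction lost many squamous lineage genes in the mean over the 5 lines. Of all tested genes, 3.49% fell and 2.74% rose by limma. The balance over all genes turned in the other fits, with 4.91% falling and 5.17% rising under the batch block and 9.25% and 13.5% with line and batch as a block. Of the 26 other lineage factors, 9 fell and 0 rose by limma, 9 fell and 1 rose under the batch block, and 10 fell and 3 rose with line and batch as a block. Limma-voom called 8, all falls. The list had a median log2 difference of -0.29 beside 0.06 over all genes. Ovol1 and Ovol2, which encode zinc-finger repressors that maintain epithelial state, averaged 17.7 and 0.6 units in EPCAM- cells and 214 and 47.4 in EPCAM+ cells. Grhl2, a grainyhead factor of epithelial junction genes, fell by 2.32 (limma adjusted p = 4.3e-06). Sox9, at -0.65, had a smaller difference than these.

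Of the 39 basal keratinocyte genes, 15 fell and 1 rose in EPCAM- cells by limma, with a median of -0.63. The counts were 16 and 0 under the batch block and 23 and 1 with line and batch as a block. Serpinb5, which encodes maspin, fell by 4.02 (29.6 against 490.6 units, limma adjusted p = 8.27e-10), and Krt5, the keratin partner of Krt14, fell by 3.33 (6.6 against 53.3 units, adjusted p = 0.0126). Dst, which encodes a plakin, rose by 0.69 (adjusted p = 0.0338), and it missed the threshold with the batch block (0.0502) and in 11 of 20 fits that left out 1 library. Of the 20 differentiation genes, limma and limma-voom called Lypd3 alone, with a fall of 2.34 (limma adjusted p = 4.04e-08). The batch block called 3, adding S100a14 and Krt16, and the block of line and batch 6, all of them lower. Of the 11 SOX9-linked genes tested, limma called 2, Wnt5a and Col11a1, which rose by 2.75 and 2.86 (adjusted p = 0.00333 and 0.0199), while Sox9 fell. With line and batch as a block 3 rose and 1, Acan, fell, so the list did not move in 1 direction. By limma-voom Col11a1 missed the threshold (0.0637), as it did without the Klf5KO EPCAM- batch 1 (0.0532) or the Creb3l1KO EPCAM+ batch 2 library (0.0541). The fibroblast and epithelial marker sums also differed between these fractions, at 668 to 5007 and 15720 to 25988 units in EPCAM- and 160 to 888 and 32554 to 56789 in EPCAM+ libraries of day 8, and their part in these differences was not tested.

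Patterns like those of the 5 genes were described by the correlation of log2 values over the 22 libraries among 10717 genes. The libraries share lines, fractions, batches and a common total, so these values carry no test. Phactr2, a phosphatase and actin regulator gene, was most like Pitx1 (r = 0.948), followed by Krt14 (0.914), Angel2 (0.908), Coq2 (0.898) and Slc36a4 (0.894). Over the 18 libraries outside Pitx1KO the values were 0.287, 0.650, -0.069, 0.463 and 0.103 in the same order. Phactr2 held 0 and 6 units in Pitx1KO EPCAM- cells against 98 to 187 in the other lines, and it was called in 8 of 8 comparisons of Pitx1KO with a single line. Tfap2a was most like Rps6ka6 (0.893, and 0.894 outside Pitx1KO), and Sox9 most like Ifnlr1 (0.868, and 0.790). Between the members, r was 0.495 for Pitx1 with Tfap2a and 0.445 for Pitx1 with Sox9. Both values include the Pitx1KO libraries, where Pitx1 was low, and were not computed without them.

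Among the called genes whose Pitx1KO libraries did not overlap the other lines, with a mean of at least 50 units on 1 side, Krt17 and Krt14 were in the 5 largest falls of EPCAM- cells and Krt17 in those of EPCAM+ cells. Others belonged to none of the lists. Hoxb7, a homeobox gene of the trunk, was at 227 and 214 units in Pitx1KO EPCAM+ cells and 0 to 36 in the others, and it rose by 4.47 (SE 0.56, limma adjusted p = 0.000538). Pcdh19, a protocadherin gene, was at 3975 and 1908 against 182 to 580 units and rose by 3.01 (adjusted p = 0.0115, and 0.272 without the Pitx1KO batch 1 library). In EPCAM- cells Bst1, an ectoenzyme gene, was at 1034 and 699 against 153 to 361 units and rose by 1.88 (adjusted p = 0.00116, and 0.0712 without the Pitx1KO batch 1 library). Crmp1, a semaphorin signalling gene, was at 3 and 0 units against 30 to 996 in EPCAM+ cells and fell (limma adjusted p = 0.000278), and it missed the threshold by limma-voom (0.173). Creb3l1KO held the lowest of those values, at 30 and 37 units, and the other 3 lines held 126 to 996.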

How the data were processed

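The authors deposited 1 table of normalised values for 49671 genes in 22 libraries. Their unit is not stated in full, so the deposited values were treated as a score: whole numbers with nearly the same sum in each library that fall on steps of 1 read (99.8 to 99.9% of values above 0). Per the labels' protocols, RNA was prepared with the RNeasy micro kit and Ovation Solo libraries were sequenced paired end. Per the submitters' processing notes, FastQC, Trimmomatic, STAR, Picard and HTSeq were used with GRCm38 (mm10). Their versions and settings, including strand, are not given in the sources used here. 1 conditional allele of the tumour is not reported here.

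Genes that reached a value of 10 in 2 or more libraries (19569) entered the test, made with limma 3.58.1 in R 4.3.3, on log2(value + 1), with 1 mean per group over all 22 libraries, a trended robust prior and Benjamini-Hochberg adjustment over all genes tested in each comparison, at a threshold of 0.05. All 5 members passed, Trp63 through 2 libraries. A log2 fold change on this scale understates the change of low genes. Residual degrees of freedom were 11. Reads were recovered from the steps for limma-voom as an alternative. Floors and read numbers cover counting error only. Gene positions come from GENCODE M21, which held 49412 of the gene identifiers. The fit was run on simulated data with independent libraries, the same relative spread for all genes and no batch effect. That run does not cover the shared deviations of libraries described below.

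Same-numbered libraries deviated together in part: r was over 0.1 in 36 of 55 pairs of groups (median 0.146) and 0.171 to 0.381 for the fractions within lines. The numbers come from a label named batch. The batch number was therefore a block in an alternative fit, and line with batch in another, chosen after seeing the data.

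The members and the gene lists were chosen with earlier results of these data known. Named genes were, from each list, up to 6 called genes per direction whose higher group averaged 20 or more. Added to these were the 5 genes most correlated with each member, and the 5 largest rises and falls in Pitx1KO, averaging 50 or more in the higher group, whose libraries did not overlap those of the other lines. The text prints a selection of them. Python 3.11.15 with pandas 2.3.3 was used for the summaries.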

Additional observations from a re-analysis of the deposited data

Results flagged for a closer look

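The difference of Pitx1 between fractions had opposite signs in different lines. In Pitx1KO both pairs were lower in EPCAM- than in EPCAM+ cells (log2 differences -0.29 and -0.04), while both pairs were higher in Control (0.25 and 0.38), Klf5KO (0.15 and 0.11) and Nfatc1KO (0.13 and 0.11). The Creb3l1KO pairs had both signs (0.38 and -0.24). The mean in Pitx1KO minus that in another line was -0.476 for Control, -0.291 for Klf5KO and -0.283 for Nfatc1KO. These differences between single lines were not tested. The interaction of Pitx1KO against the mean of the 4 other lines was tested and was not called (-0.32, limma adjusted p = 1, and 0.534 with line and batch as a block).

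The other targeted genes checked the labels unevenly. Klf5 was at 2247 and 1961 units in Klf5KO EPCAM+ cells and at 2585 and 1733 in Control (limma adjusted p = 1). Creb3l1 was at 0 to 12 units outside Control EPCAM- cells, where it was at 137 and 26. Nfatc1 was at 194 and 182 units in Nfatc1KO EPCAM+ cells against 817 and 488 in Control (log2 -1.74, adjusted p = 0.315, and 0.00065 with the batch block).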

How the results depend on the processing

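Pitx1 against the other lines kept its direction and call in every alternative run. Of 2459 values of single genes under alternatives, 2163 kept direction and side of the threshold, 286 were no longer called, 1 was newly called (Tfap2a between fractions, -0.23, adjusted p = 0.00705 with line and batch as a block) and 9 reversed. Having 2 libraries per group limited the precision, and Trp63 and Sox15 were limited by depth.

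The number of called genes moved with the fit. With the replicate block it was 597 and 625 for Pitx1KO against the other lines in EPCAM+ and EPCAM- cells (214 and 267 without), 386 and 491 against Control (80 and 179), 1973 for the fraction mean (1218) and 2 for day 8 against day 0 (0). Pairing line and batch gave 4461 for the fraction mean and 30 for the interaction (0 without). With no trend the counts were 135, 167, 52 and 116 for the 4 Pitx1KO comparisons in that order and 5 for day 8 against day 0. On the groups compared alone they were 53, 128, 2 and 0. Limma-voom gave 39 against Control in EPCAM+ cells, and no filter gave 2 for day 8 against day 0.

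Leaving out 1 replicate at a time gave 46 to 237 and 53 to 229 calls against the other lines, lowest without the batch 1 Pitx1KO library of that fraction. It gave 23 to 80 against Control in EPCAM+ cells, lowest without the same library, and 28 to 181 in EPCAM- cells, lowest without the Control batch 1 library. The range was 837 to 1364 for the fraction mean, 0 to 3 for day 8 against day 0 and 0 to 0 for the interaction. All 9 reversals came from leaving out 1 library, in log2 values that were not called. For day 8 against day 0, these ran from -0.84 to 0.044 for Sox15 and from -0.12 to 0.21 for Tfap2a. Sox9 against Control in EPCAM+ cells ran from -0.69 to 0.032. The interactions ran from -0.64 to 0.086 for Sox9 and from -0.25 to 0.11 for Tfap2a. The causes were not tested.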
